A study of Mus musculus with 2 samples.

Results

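The stretch of chromosome 17 from 22 to 42 Mb, in the positions of the scanner files, holds the mouse major histocompatibility complex, H-2, and its flanks. Its gene probes were taken without those named H2-, Tap, Psmb, Hspa1, Rps, Rpl or Nduf and without Fgd2, Dusp1 and Bak1. This left 683 of the 41174 gene probes on the array, for 500 genes, and 462 of them, for 335 genes, were bright enough to be tested. The other 221 were too dim on an array in both channels, or were outlier spots. The probes were chosen by position and name, with earlier results of these data known. The scanner files name no genome build, and their positions differ from those of the RefSeq table used for gene names.

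The data come from 2 Agilent arrays of 2 colours. On each, RNA of autoreactive immature B cells, labelled with Cy5, was set directly against RNA of non-autoreactive cells, labelled with Cy3. The autoreactive cells came from BALB.B mice of genotype 3-83Igi, Rag1-/-, H-2b, and the non-autoreactive cells from BALB/c mice of genotype 3-83Igi, H-2d. Both were pooled bone marrow cells of untreated mice, sorted as B220 positive and negative for CD23, CD43 and IgD. The 3-83Igi alleles, which supply a prearranged antigen receptor, were common to both groups. Rag1-/- is given for the autoreactive cells alone, so autoreactivity, strain, H-2 haplotype, Rag1 and dye cannot be told apart. The animals behind each pool are not named in the labels, so the p-values measure the spread between these 2 arrays, which may be technical in part.

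H-2 is inherited as a block, or haplotype, and differs in sequence between mouse strains more than most of the genome does. Its class I and class II segments encode the molecules that present peptides to T cells. Between them lies the class III segment, whose genes do not present peptides: complement factors, the cytokines of the tumour necrosis factor (TNF) family and many genes that every cell uses. BALB.B is a congenic strain, made by crossing the H-2b haplotype onto a BALB background, so that the genes near H-2 travelled with it. How far the H-2b segment reaches in these mice is not given in the sources used here.

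The steepest change of the stretch lay between neighbours of the class III segment, from Sapcd1 and Msh5, lower in autoreactive cells, to Clic1 and Ddah2, higher in them. The promoters of Msh5, Clic1 and Ddah2 are shown because these neighbours moved in opposite directions. They are RefSeq sequences of GRCm38.p6, from 250 bases before to 50 bases after the start of each gene, at chr17:35046573-35046872 on the minus strand for Msh5, chr17:35049993-35050292 on the plus strand for Clic1 and chr17:35058785-35059084 on the plus strand for Ddah2. Capitals mark matches to the motifs searched.
Msh5: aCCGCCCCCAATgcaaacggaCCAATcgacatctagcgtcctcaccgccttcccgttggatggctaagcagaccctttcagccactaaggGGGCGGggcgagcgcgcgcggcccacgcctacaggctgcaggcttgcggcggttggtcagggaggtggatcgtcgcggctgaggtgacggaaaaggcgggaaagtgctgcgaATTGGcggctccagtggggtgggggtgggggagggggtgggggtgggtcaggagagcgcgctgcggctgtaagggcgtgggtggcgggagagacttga
Clic1: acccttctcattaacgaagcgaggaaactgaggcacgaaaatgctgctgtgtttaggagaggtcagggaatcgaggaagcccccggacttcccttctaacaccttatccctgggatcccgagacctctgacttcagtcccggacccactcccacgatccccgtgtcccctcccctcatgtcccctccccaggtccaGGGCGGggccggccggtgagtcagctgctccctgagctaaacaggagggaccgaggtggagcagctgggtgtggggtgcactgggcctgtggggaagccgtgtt
Ddah2: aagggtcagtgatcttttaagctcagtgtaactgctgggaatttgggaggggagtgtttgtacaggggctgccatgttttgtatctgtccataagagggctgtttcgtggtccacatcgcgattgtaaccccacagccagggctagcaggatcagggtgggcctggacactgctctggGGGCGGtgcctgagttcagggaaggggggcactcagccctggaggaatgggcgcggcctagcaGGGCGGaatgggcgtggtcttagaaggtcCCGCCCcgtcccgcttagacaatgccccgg
The search, on both strands, covered the TATA box as TATAAA, the CCAAT box as CCAAT, the GC box as GGGCGG, the E-box as CACGTG and the Ets core as CCGGAAGT. Msh5 had 3 matches to CCAAT and 2 to GGGCGG, with a match to each side by side at the start of the printed sequence. Clic1 had 1 match to GGGCGG and Ddah2 had 3. The TATA box, E-box and Ets core letters were not found in these windows. Among all 32851 mouse promoters of that table, 37.4% held CCAAT and 35.7% GGGCGG, so both are common letters. The TATA box letters stood in 13.6%, those of the E-box in 7.15% and those of the Ets core in 3.89%. GC made up 67.3% of the Msh5 window, 62% of that of Clic1 and 59.7% of that of Ddah2. A promoter was listed for 233 of the 335 tested genes and for 17 of the 28 genes with a called probe. The strands and coordinates show that Msh5 is read away from Clic1 and Ddah2.

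Each array held 43379 gene spots, of which 54.1% to 57.4% were well above background per channel, and 0 were saturated. All ratios below are log2 of autoreactive over non-autoreactive, levels are normalized log2 intensities, and ± gives the standard error from limma (SE, n = 2 arrays). H2-Ea, the class II alpha chain gene whose promoter is deleted in H-2b and which was left out of the neighbourhood, checked the labels. Its level was 8.48 and 8.52 in autoreactive cells against 13.7 and 13.8 in non-autoreactive cells, a ratio of -5.24 ± 0.12 (limma, Benjamini-Hochberg adjusted p = 0.000196). The cells with little H2-Ea were thus those labelled H-2b. All 13 genes of the B lineage list were tested, and their summed log2 level was 19.9 on both arrays in autoreactive cells against 19.3 and 19.2 in non-autoreactive cells. The members did not move one way: 5 were higher by limma, among them Blnk and Pou2af1, and 2 were lower, Pax5 at -1.05 and Ptprc at -0.85. Over all tested genes, each read by its brightest probe, 6.09% were called. Probes of Pax5 at -0.40 and of Ptprc at -0.59 and -0.48 were not called, while a further Ptprc probe at -0.77 was. Vpreb3, among the higher ones, also had a probe that was not called, at 0.14.

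Markers of other cells gave different medians on the 2 arrays. The summed log2 level of 12 plasmacytoid dendritic cell genes was 16.4 and 16.3 in autoreactive cells against 17.1 and 17.3, and their median ratio was -0.73 on array 1 and -2.08 on array 2. For 17 myeloid genes the summed levels were 19.1 and 18.9 against 18.9 and 19.4, with median ratios of 0.04 and -0.84. For 16 T and NK cell genes they were 15.1 and 14.8 against 15.2 and 15.3, with median ratios of -0.05 and -1.13. For 11 erythroid genes they were 16.5 and 16.4 against 16.9 and 16.7, with median ratios of -0.52 and -0.34. Lower by limma were 2 of the 12 plasmacytoid dendritic cell, 1 of the 17 myeloid, 2 of the 16 T and NK cell and 2 of the 11 erythroid genes, and 0 were higher. Over all tested genes, each read by its brightest probe, 6.09% were called in either direction, and 2.17% of all tested probes were called lower. The myeloid sum was higher in autoreactive cells on array 1 and lower on array 2. Among these markers, 2 T and NK genes were not well above background on both arrays in 1 channel. Fewer cells of a type and less RNA per cell cannot be told apart in such pools.

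Of the 462 tested probes of the neighbourhood, 33 were called by limma at an adjusted p under 0.05, 13 higher and 20 lower, where 5.31% of all tested probes were called. The members' share was 7.14%, against 5.2% of the 21958 tested probes placed outside the window and 3.73% of the 563 on the rest of chromosome 17. Higher calls made up 2.81% of members against 3.15% of all probes and 3.12% of those outside, and lower calls 4.33% against 2.17% and 2.08%. Read by the brightest probe of each gene, 7.76% of member genes and 6.02% of genes outside were called. The share for the whole neighbourhood lay inside the range of the other 19 chromosomes, 3.36% to 7.77%. At an unadjusted p under 0.05, 23.4% of members, 23% of the probes outside and 23.1% of all probes passed. The median absolute ratio was 0.18 in both sets. Of the 68 tested probes left out of the window, the class I, class II and other genes of the rule, 29.4% were called.

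Position divided the calls. In bins of 2 Mb, the bin from 32 to 34 Mb, which also holds most of the left-out H2- genes, had 17 of 108 probes called (15.7%), 6 higher and 11 lower. Inside it, 14 of the 64 probes from 33 to 34 Mb were called (21.9%), and among the other bins of 1 Mb with at least 20 tested probes the next share was 10%, 2 of 20, from 26 to 27 Mb. Among smaller bins, 41 to 42 Mb had 2 of 9 called (22.2%) and 28 to 29 Mb had 2 of 12 (16.7%). Those of 25 to 26 Mb and 29 to 30 Mb had 3 of 19 (15.8%) and 2 of 16 (12.5%). The bin from 22 to 24 Mb had 0 of 88 called by limma, 1 with a trended and robust variance and 0 with the deposited ratios, and 12 at an unadjusted p under 0.05. The bins from 26 to 28 Mb and from 28 to 30 Mb had 4 of 49 and 4 of 28 called, 7 of the 8 lower. With the deposited ratios they had 3 and 0 called. Of 65 probes within 0.1 Mb of a left-out H2- probe, 7 were called (10.8%), and 12 of 96 between 0.1 and 0.5 Mb (12.5%), 1 of 47 from 0.5 to 2 Mb (2.13%), 6 of 72 from 2 to 5 Mb (8.33%) and 7 of 182 farther away (3.85%). The calls within 0.5 Mb included every tested probe of Sapcd1, Msh5, Clic1 and Ddah2. They also included 4 class I or class II sequences under other names. Shares by distance were not computed without these probes.

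Part of the calls in the bin from 32 to 34 Mb came from a few neighbouring genes. Without Sapcd1, Msh5, Clic1 and Ddah2, a comparison chosen after seeing the data, the bin from 32 to 34 Mb had 10 of 101 probes called (9.9%) and the neighbourhood 26 of 455 (5.71%). Read by the brightest probe of each gene, the bin had 13 of 82 called (15.9%). Without the class I and class II sequences under other names it had 14 of 100 (14%). Neither comparison was planned. Without the filter on dim probes the bin had 10 of 138 (7.25%), where 1.9% of the probes outside the window were called.

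**Figure D1:**
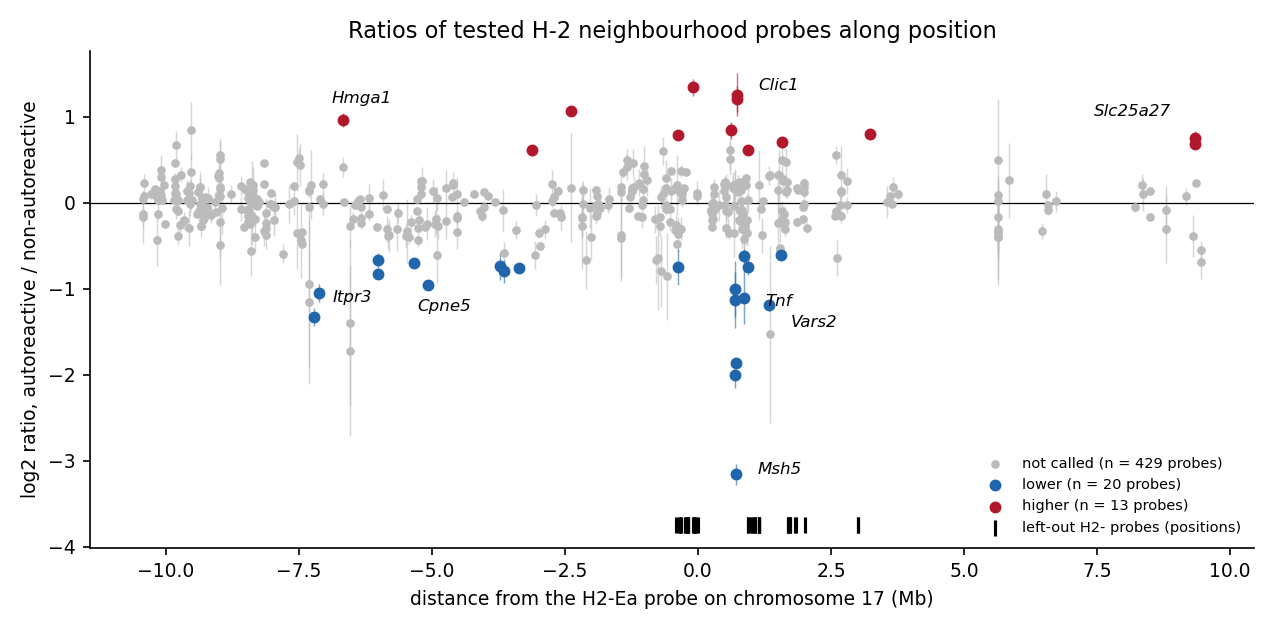
Log2 ratio of autoreactive over non-autoreactive cells for each of the 462 tested probes (y axis) against distance from the H2-Ea probe in Mb (x axis), with lines from the value on array 1 to that on array 2 and ticks for the left-out H2- probes. The 20 lower and 13 higher calls by limma are coloured, and the lowest, Msh5 at -3.16, lies among the class III genes.

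**Figure D2:**
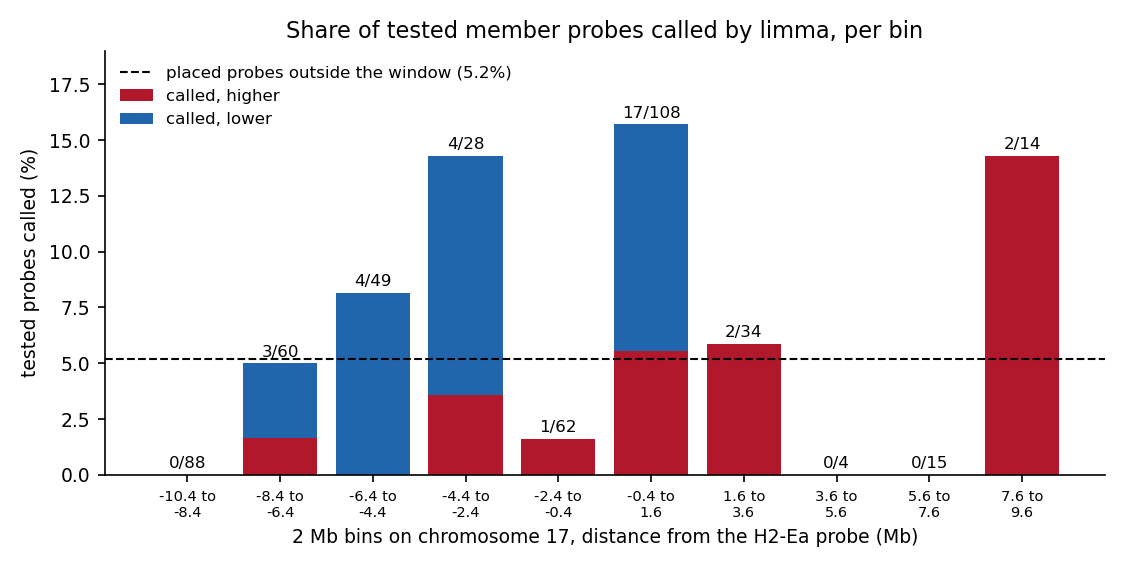
Share of tested probes called by limma in each 2 Mb bin (bars, with called over tested above), by distance from the H2-Ea probe in Mb, with 5.2%, the share among placed probes outside the window, as a dashed line. The bin with 17 of 108 called holds the H2-Ea probe and the class III genes, and the bin at the far left has 0 of 88.

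Msh5, the partner of Msh4 in meiotic recombination, was lower in autoreactive cells on all 3 of its probes. On the probe at chr17:33141512-33142246 its level was 8.24 and 8.94 in autoreactive cells and 11.52 and 11.97 in non-autoreactive cells, ratios of -3.28 and -3.04. The mean of -3.16 ± 0.13 (limma adjusted p = 0.000714), an 8.92-fold difference, was the lowest among the members, and the levels of the groups lay far apart. The probe at chr17:33125919-33126321 gave -1.85 and -2.16, with a mean of -2.0 ± 0.14 (limma adjusted p = 0.00274). The remaining probe, at chr17:33141661-33141720, gave -1.80 and -1.91 (limma adjusted p = 0.00261), with the Cy5 spot of array 2 not well above background. The 3 probes shared the direction and differed in size.

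Sapcd1, a gene of suppressor APC domain protein 1, is the neighbour of Msh5 and is named Ng23 in the scanner files. Its probe at chr17:33123515-33123810 read 10.76 and 10.64 in autoreactive against 11.56 and 12.09 in non-autoreactive cells, a ratio of -1.13 ± 0.18 (limma adjusted p = 0.0249). The second probe starts 5 bases further on and largely shares its span, and gave -1.0 ± 0.18 (limma adjusted p = 0.0343), so the pair are not independent readings. Without the filter on dim probes neither was called, and the second was not called with the deposited ratios either.

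On the other side of Msh5 the direction turned. Clic1, which encodes a chloride intracellular channel protein, read 16.8 and 17.1 in autoreactive against 15.8 and 15.6 in non-autoreactive cells on its probe at chr17:33155732-33155791. Its ratio was 1.26 ± 0.16 (limma adjusted p = 0.012), and 0.82 with the deposited ratios, where it was not called (adjusted p = 0.0839). Ddah2, an enzyme family member of methylarginine metabolism, read 15.4 and 15.6 against 14.3 and 14.2 on its probe at chr17:33159022-33159081, a ratio of 1.21 ± 0.14 (limma adjusted p = 0.00942). For both genes every autoreactive level lay above every non-autoreactive level.

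The nearest tested neighbours of these 4 were not called. Vars, the valyl-tRNA synthetase gene next to them, had probes at 0.18 and 0.21, and D17H6S56E-5 had probes at -0.03 and -0.35. The splicing gene Lsm2 stood at 0.21 and 0.17, and on the far side Ly6g6c stood at 0.23 and Ly6g6d at 0.13. Neu1, the lysosomal sialidase, gave 0.51 and 0.62, with adjusted p of 0.107 and 0.082 by limma. Of the 29 genes of the complement and class III core list that were tested, 2 were higher and 2 lower by limma, the 4 named above, where 6.09% of all tested genes were called when each is read by its brightest probe. The median ratio of the list was -0.03, beside 0.01 over all probes tested. The complement genes C4b, Cfb and C2 stood at -0.03, 0.06 and -0.10, each close to background. Beyond the list, the clone gene 1110038B12Rik, near Neu1, read 13.94 and 13.89 against 13.20 and 12.95, a ratio of 0.84 (limma adjusted p = 0.0213).

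**Figure D3:**
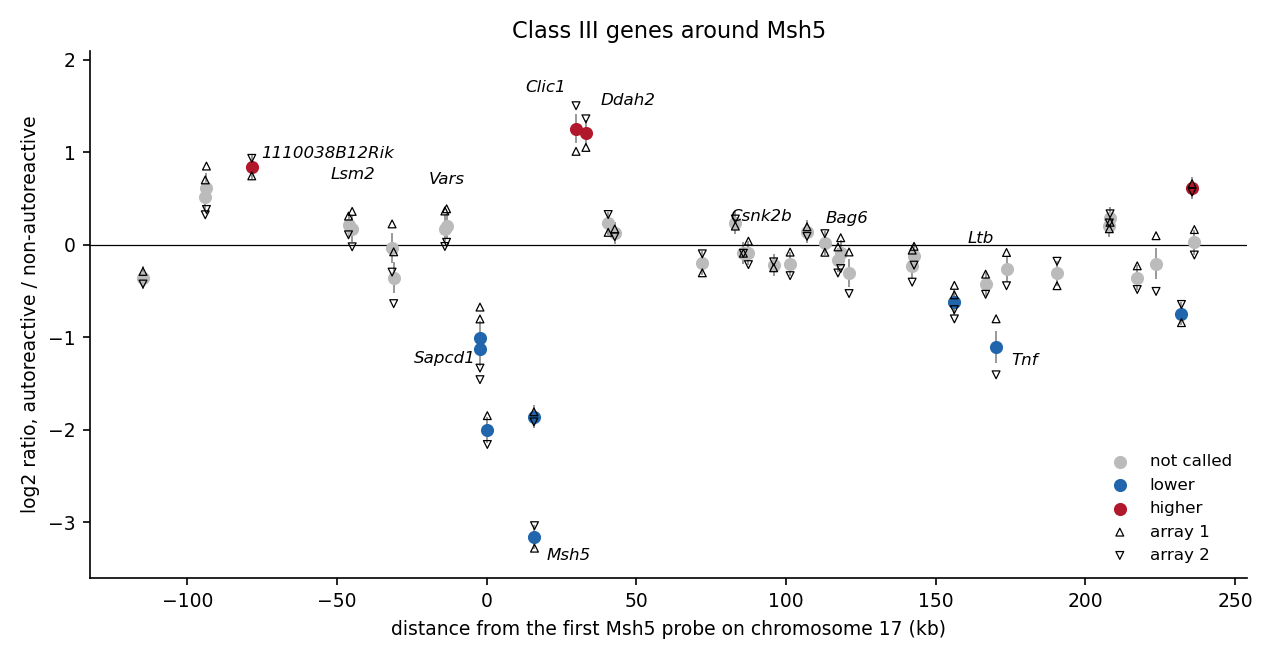
Log2 ratio of autoreactive over non-autoreactive cells (y axis) for the tested probes around Msh5, by distance in kb from the first Msh5 probe (x axis), with circles and bars for the mean and SE and triangles for the 2 arrays. Sapcd1 and Msh5 lie below -0.67 on both arrays and Clic1 and Ddah2 above 1.01. The nearest tested neighbours on either side were not called, while 1110038B12Rik at 0.84 and Tnf at -1.10 were called further out.

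The TNF cluster lies further along the class III segment. Tnf, the gene of the inflammatory cytokine, read 7.63 and 7.33 in autoreactive against 8.43 and 8.74 in non-autoreactive cells. Its ratio was -1.10 ± 0.17 (limma adjusted p = 0.0237), and its adjusted p was 0.0608 without the filter on dim probes. Lst1, a leukocyte-specific transcript gene, had probes at -0.62 and -0.62, and only the dimmer passed the test (limma adjusted p = 0.0486 and 0.0672), a call lost without the filter on dim probes. Ltb, the lymphotoxin beta gene, stood at -0.42 ± 0.13 (limma adjusted p = 0.129) and at 0.34 with median centring in place of loess. Lta, its partner, stood at -0.26, Nfkbil1 at -0.31 and Aif1, a gene of macrophages, at -0.23, and none of these was called by limma. Of the 6 genes, 1 was lower by limma when each was read by its brightest probe, with a list median of -0.37 (-0.38 on array 1 and -0.49 on array 2), and 3 passed an unadjusted p under 0.05, where 6.09% of all tested genes were called and 23.1% of all tested probes passed unadjusted. The myeloid and plasmacytoid dendritic cell markers, whose values are given above, had medians below 0 on array 2, and their part in these ratios was not tested.

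Among 26 tested genes of the class II flank, 1 was called by limma, where 6.09% of all tested genes were called. At an unadjusted p under 0.05, 6 passed, where 23.1% of all tested probes did. The largest ratio of the list, that of Kifc5b at -1.15, was not called and is described with those that rested on array 2. The called gene was Vps52, a subunit of a complex that returns vesicles to the Golgi apparatus. It read 8.59 and 8.65 in autoreactive against 7.84 and 7.81 in non-autoreactive cells, a ratio of 0.79 ± 0.12 (limma adjusted p = 0.0229). The list median was -0.03. Ring1, a Polycomb subunit, stood at 0.37 and 0.11 on its probes, the bromodomain gene Brd2 at 0.36, Wdr46 at -0.48 and the histone chaperone gene Daxx at -0.32, none called by limma.

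The class I flank had 1 gene higher and 2 lower by limma among 23 tested, where 6.09% of all tested genes were called, with a list median of 0.13. The 23 include Vars, a class III gene that entered the list because the files name it Vars2, and it was not called. Its largest ratio, that of Ddr1 at -1.53, was not called and is described with the ratios that rested on array 2. Vars2, the mitochondrial valyl-tRNA synthetase gene, read 10.9 and 10.5 against 12 and 11.7 on a probe at chr17:33756509-33756568, a ratio of -1.19 ± 0.12 (limma adjusted p = 0.00806). A second probe of Vars2 gave 0.32 and was not called, so the probes of this gene disagree. Ppp1r18 stood at -0.60 (limma adjusted p = 0.0478) and lost its call in 5 of 7 other processings. Atat1, the alpha-tubulin acetyltransferase gene, stood at 0.70 (limma adjusted p = 0.0332, call lost with the deposited ratios), and at 0.50, not called, on its other probe. Nrm, a nuclear membrane gene, stood at -0.52 and -0.55 (limma adjusted p = 0.0686 and 0.0623). Of the 3 Trim genes tested, 0 were called by limma or with a trended and robust variance, and 1 passed an unadjusted p under 0.05: Trim10, an erythroid gene, at -0.64 (limma adjusted p = 0.0689). The brightest probes of Trim26 and Trim39 stood at -0.09 and -0.01.

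The rule left out genes by the name in the scanner files, and 9 tested probes of class I or class II sequence remained under other names. By limma, 4 of them were called, where 5.31% of all tested probes were. A class II A-beta-2 transcript, named ENSMUST00000095342, read 7.59 and 8.05 in autoreactive cells, while its Cy3 spots were not well above background. The autoreactive level was at least 2.54-fold higher after loess (limma ratio 1.34, adjusted p = 0.0065). This value takes, per array, the higher of the dim spot's signal and the lowest signal well above background. The dim spots' own signal was the higher, so it equals the fitted fold and bounds nothing under another scaling: the ratio was 0.83 with median centring and 3.63 with the deposited ratios, and 1.24 on array 1 alone. It is open to dye bias. LOC630499 stood at -0.75 (limma adjusted p = 0.0459), at 0.03 with median centring, and lost its call in 3 of 7 other processings. A LOC56628 probe, matched to H2-Q2 in RefSeq, stood at 0.62 and a class I H2-M2 transcript at 0.80. Both were higher by limma (adjusted p = 0.046 and 0.0217). The LOC56628 probe lost its call in 3 of 7 other processings and ranged from 0.24 with the deposited ratios to 1.43 with median centring. It lies at chr17:33361545-33361604, beside a left-out H2-D1 probe that gave -0.33, not called. A left-out probe named H2-Q2 in the files, at chr17:33440548-33440607, gave -0.23, and another LOC56628 probe gave 0.16, neither called. Which gene the LOC56628 probe at 0.62 reads is thus uncertain. H2-Eb2 stood at 0.08 and 0.11, not called. Probes of this family can share sequence with other class I genes, and the match of each to either haplotype is not known here, so these ratios are uncertain as levels of single genes. Without the 9 probes, a comparison chosen after seeing the data, 29 of 453 were called (6.4%).

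Before H-2, in the positions from 25 to 30 Mb, the calls were mostly lower. Itpr3, a receptor that releases calcium from the endoplasmic reticulum, read 14.8 and 14.6 in autoreactive against 15.8 and 15.8 in non-autoreactive cells. Its ratio was -1.05 ± 0.13 (limma adjusted p = 0.0114), and -0.39 with median centring, where the adjusted p was 0.0562. Def6, a guanine nucleotide exchange factor that acts downstream of lymphocyte antigen receptors, was lower on both probes, at -0.83 and -0.67 (limma adjusted p = 0.0198 and 0.0393), and neither was called with median centring, where the first stood at -0.29. The second lost its call in 4 of 7 other processings. Cpne5, a calcium-dependent membrane-binding copine, read 12.8 and 12.4 against 13.7 and 13.3, a ratio of -0.96 ± 0.12 (limma adjusted p = 0.0128). Cpne5 was called in each of the 7 other processings. Glo1, the glyoxalase that detoxifies methylglyoxal, stood at -0.80 ± 0.13 (limma adjusted p = 0.0281), with its other probe at -0.58 and not called. Its call was lost with the deposited ratios (adjusted p = 0.0672) and with median centring, where it stood at -0.38 (adjusted p = 0.0825).

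The list of lymphocyte signalling genes outside H-2 had 1 gene higher and 4 lower by limma among 15 tested, with a median of -0.17, where 6.09% of all tested genes were called. At an unadjusted p under 0.05, 6 passed, where 23.1% of all tested probes did. Itpr3, Def6, Cpne5 and Glo1 were the lower ones, and Glo1 is an enzyme rather than a signalling protein. The higher one was Abcg1, a cholesterol exporter, at 0.61 (limma adjusted p = 0.0495). Its groups overlapped across arrays, with 11.1 and 11.8 against 10.6 and 11.2, and its call was lost in 4 of 7 other processings. Ubash3a, a regulator of T cell receptor signalling, stood at -0.35, Traf7 at -0.26 and Tnfrsf21, a death receptor gene, at -0.09 on its brighter probe, none called. With the deposited ratios 3 of the 15 genes were called.

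Hmga1, a chromatin architectural protein gene, was the only call among 24 chromatin and transcription regulators, where 6.09% of all tested genes were called. It read 16.7 and 16.6 in autoreactive against 15.6 and 15.8 in non-autoreactive cells, a ratio of 0.96 ± 0.13 (limma adjusted p = 0.0137), and 0.58 with the deposited ratios, where the adjusted p was 0.112. The list median was -0.12. Ehmt2, a histone methyltransferase, stood at -0.35 and the receptor gene Notch3 at -0.66 ± 0.18, with -0.32 on array 1 and -1.0 on array 2.

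Of 18 genes for kinases and the cell cycle and 13 around Tsc2, Pkd1, Mlst8 and Axin1, 0 were called by limma, by its trended and robust fit or with the deposited ratios. By limma, 6.09% of all tested genes were called, so few calls would be found in lists this short at that share. At an unadjusted p under 0.05, 5 of the 18 and 3 of the 13 passed, shares near the 23.1% of all tested probes. Their median ratios were -0.28 and -0.14. The cell cycle inhibitor gene Cdkn1a stood at -0.28, the survival kinase gene Pim1 at -0.21 on its brighter probe, Mapk14 at -0.38, Stk38 at -0.43 and Pdpk1, the kinase that activates Akt, at -0.43. Tsc2, a brake on the growth kinase mTOR, stood at -0.20 and Mlst8, a subunit of the mTOR complexes, at -0.39. The vesicle gene Rab26 stood at 0.33 with loess and at -0.19 with median centring.

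The largest ratios that were not called rested on array 2. Pacsin1, an endocytosis adaptor that is also on the plasmacytoid dendritic cell list, read 9.22 and 7.78 in autoreactive against 9.96 and 10.5 in non-autoreactive cells. Its ratio was -0.73 on array 1 and -2.72 on array 2, a mean of -1.73 ± 0.42 (limma adjusted p = 0.0779), and its other probes gave -1.39 and -0.27. Ddr1, a collagen receptor kinase, gave -0.50 and -2.56, a mean of -1.53 ± 0.44 (limma adjusted p = 0.112). Kifc5b, a spindle motor named Kifc1 in the files, gave -0.20 and -2.10, a mean of -1.15 ± 0.40 (limma adjusted p = 0.166). These means are set by array 2, on which the plasmacytoid dendritic cell, T and NK, and myeloid lists also had lower medians than on array 1, and the part of those cells in them was not tested. Over the 462 probes, which are no replicates of a condition, array 1 against array 2 gave r = 0.695 and rho = 0.625, with an SD of 0.38 on array 1 and 0.52 on array 2.

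**Figure D4:**
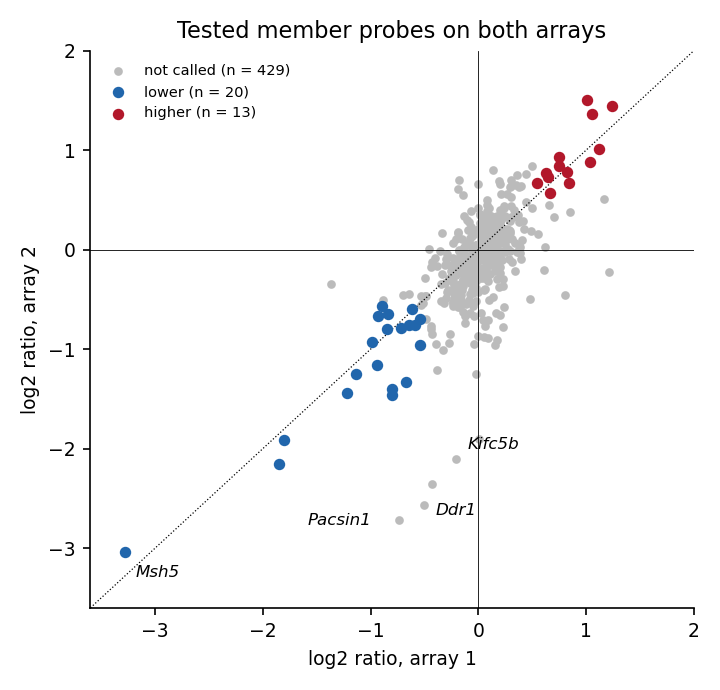
Log2 ratio on array 2 (y axis) against array 1 (x axis) for the 462 tested probes, with the 33 calls by limma coloured and a dotted line of equal values. The calls lie near the dotted line, while the marked probes of Pacsin1, Ddr1 and Kifc5b lie below -1.9 on array 2 and above -0.74 on array 1.

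Far from the class I and class II genes, single calls appeared. At chr17:30043393-30043452 the transcript AK048349, described in the files as an SNF1-like kinase, read 13 and 13.1 against 11.9 and 12.1, a ratio of 1.07 ± 0.12 (limma adjusted p = 0.00966). The probe named Sik1, a kinase of that family, gave 0.81 on array 1 and -0.45 on array 2. The transcript ENSMUST00000053683, next to Itpr3, read 7.18 and 7.19 against 8.40 and 8.63, a ratio of -1.33 ± 0.13 (limma adjusted p = 0.00682). Both transcripts were called in each of the 7 other processings. At the far end, Slc25a27, a mitochondrial uncoupling protein of the nervous system, was higher on 2 of 3 probes, at 0.75 and 0.69 (limma adjusted p = 0.0283 and 0.0334), and its remaining probe gave 0.23.

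Of 30 genes of other tissues on the array, 13 were tested. By limma 1 was lower, where 6.09% of all tested genes were called. It was Dnah8, a dynein heavy chain of sperm tails, at -0.75 ± 0.12 (limma adjusted p = 0.0262), with its other probe at -0.32 and not called. Dnah8 lost its call with the deposited ratios. Tff1, a stomach mucosal peptide gene, stood at -0.61, Pla2g7, a phospholipase gene, at -0.38 and Rhag, an erythroid membrane gene, at -0.33. Bnip5, named 4930539E08Rik in the files, had Cy5 spots not well above background on either array and was at least 1.62-fold lower in autoreactive cells by the rule used for ENSMUST00000095342 (limma adjusted p = 0.0323). Here too this is the fitted fold, a log2 ratio of -0.70 with loess and -1.56 with the deposited ratios.

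Probes of the same gene did not always give the same answer. Of 101 genes with several tested probes, 10 had a called probe. The like share outside the neighbourhood was not computed, and shares by brightest probe are no measure for it. All tested probes were called for 3 of these, Def6, Msh5 and Sapcd1, and 7 had a probe that was not called. In 2 of the 7, Btbd9 and Vars2, a probe had the opposite sign: Btbd9, a BTB domain protein gene, was at -0.73 (limma adjusted p = 0.0397, call lost in 2 of 7 other processings) on 1 probe and at 0.08 and 0.13 on the others. Since a gene's probes lie at different places, a ratio from 1 probe here is that of the probe. No probe sequence is used here, and whether bases that differ between H-2b and H-2d lie under a probe was not tested.

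**Figure D5:**
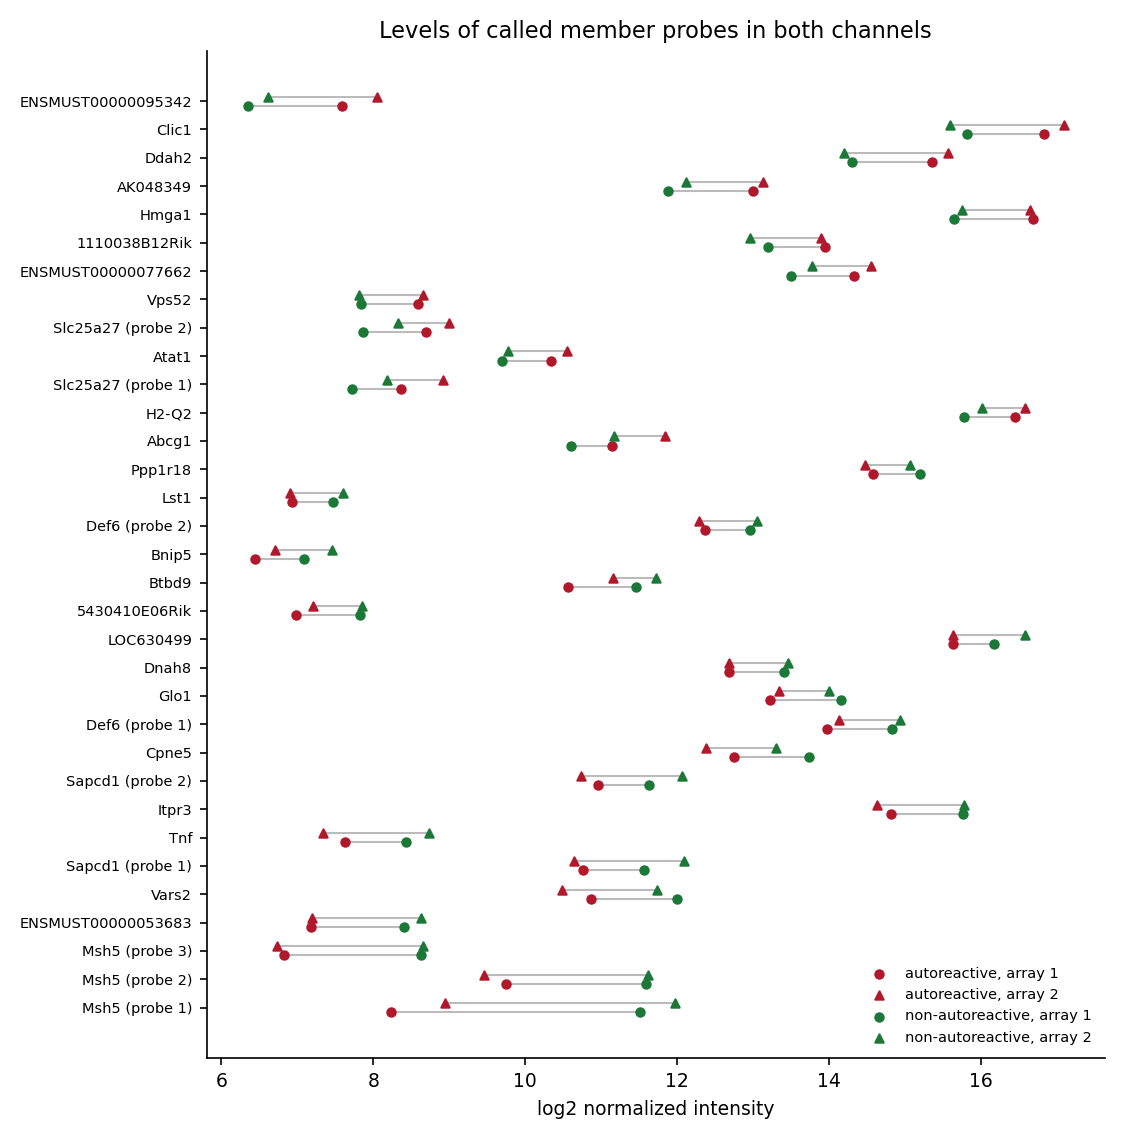
Normalized log2 intensity (x axis) of the 33 called probes (rows), with autoreactive cells in red and non-autoreactive cells in green, circles for array 1 and triangles for array 2, and a line joining the channels of an array. Msh5 shows the widest gap, 8.24 against 11.5 on array 1 for its first probe, and Abcg1 shows levels of the groups that overlap across arrays.

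Both arrays showed a 2-fold or larger ratio in the same direction for 9 of the 462 probes (1.95%), 4 higher and 5 lower, where 1.42% of all tested probes and 1.36% of the placed probes outside the window did so. The 4 higher were ENSMUST00000095342, Clic1, Ddah2 and AK048349. The 5 lower were the 3 Msh5 probes, ENSMUST00000053683 and the Vars2 probe. All 9 were called by limma, and 8 of them kept the call in every other processing in which they were tested, Clic1 being the exception.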

How the data were processed

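The deposited scanner files give each spot's mean intensity and the intensity of its local background for both channels, read with Agilent Feature Extraction (version 9.5.1.1), per the file headers. That program's deposited log10 ratio of Cy5 over Cy3, from background-subtracted and dye-normalized signals per the file headers, served as an alternative after conversion to log2. The values in the deposited series table differ from these log10 ratios by at most 5e-10.

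Background was corrected by normexp with an offset of 50, followed by loess on each array (limma 3.58.1, R 4.3.3, with data.table at version 1.17.8), leaving control and outlier spots without weight. Outlier spots were then dropped and the spots of each probe averaged. Probes bright in 1 channel or both on each array were tested, 22623 of 41174. Log2 ratios were set against 0 by lmFit and eBayes in a two-sided test, adjusted by Benjamini-Hochberg across all tested probes at 0.05. With 1 residual and 5.08 prior degrees of freedom, each SE draws mostly on all probes together. The procedure was tested on simulated data.

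RefSeq tables of GRCm38.p6 named the 683 probes, 457 by main accession, 4 by another accession, 82 by current symbol and 47 by a unique synonym, while 93 kept the file's name. A list's genes are read by their brightest probe. Genes are named if called and 2-fold on both arrays, if among the up to 4 largest ratios of a list, or if their probes disagree. Neighbours, class I and II sequences and other genes were added after their values were seen. The members, lists and rules were chosen with earlier results of these data known. Alternatives were other background corrections, the deposited ratios, median centring, other filters, a trended and robust variance, other windows, 1 probe per gene and each array alone. Figures were drawn with matplotlib 3.10.9.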

Additional observations from a re-analysis of the deposited data

How the results depend on the processing

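Of the 33 calls, 13 were called in all 7 other processings, 3 were called in the 6 that tested them, 9 lost the call in 1 and 8 in 2 or more. The trended and robust variance called 38 and included all 33. Median centring on detected probes called 149 members (74 higher, 75 lower, against 13 and 20 with loess), a share of 32.3% beside 32.7% of the probes outside, with 43 in the bin from 32 to 34 Mb, 45 list genes in place of 16 and 18 at 2-fold in place of 9. LOC630499 was the 1 call whose sign changed there. With the deposited ratios 24 were called, 22 of them among the 33, with 8 list genes and 14 at 2-fold. Without the filter on dim probes the bin from 32 to 34 Mb had 10 calls in place of 17, while the share called outside the window went from 5.2% to 1.9%, and without Sapcd1, Msh5, Clic1 and Ddah2, an alternative chosen after seeing the data, also 10. The share of members over the share outside was 1.37, and 2.5 for a window from 32 to 38 Mb, with 19 calls. With nothing left out of the window there were 53 calls. With a single array the fit has no residual degrees of freedom, so calls have no value there, and 13 to 21 probes were at 2-fold. The cause of these shifts was not tested. No paired analysis was possible because each array already sets both groups against each other and the non-autoreactive channel carries no replicate number. The number of arrays limits the precision.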
